A study of Danio rerio with 12 samples.

Results

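The genes described here encode the initiation and elongation factors of protein synthesis in the zebrafish ovary. Members were every line of the deposited count table whose gene symbol starts with eif or eef, in upper or lower case, which gave 86 of 26171 named genes. Of these, 85 passed the filter on low counts, and the remaining one, eif3bb, a copy of the eIF3b subunit gene, lay between 0 and 0.904 CPM, the usual unit of counts scaled to library size. By symbol the members fell into 19 role groups, from start codon selection to the enzymes that modify elongation factors.

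Polyadenylated RNA of ovaries was sequenced from wild-type fish of the AB strain and from adamts9 mutants, at 47 and at 61 days post fertilization (dpf), with 3 libraries in each of the 4 groups. The adamts9 gene encodes a secreted metalloprotease, and the series addresses its part in ovary formation and maintenance. The mutant allele is not given in the labels, nor is it said whether a library comes from 1 fish or from pooled fish. The p-values below therefore measure the spread between libraries, which may in part be technical. The series' design text names other ages, and those of the sample labels are used.

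Translation starts when eIF2 brings the initiator tRNA to the small ribosomal subunit, eIF3 and eIF1 prepare that subunit, and the cap-binding complex eIF4F, made of eIF4E, eIF4A and eIF4G, recruits the mRNA. eIF5B joins the large subunit, and eEF1A and eEF2 then deliver aminoacyl-tRNAs and move the ribosome along the mRNA. Growing oocytes store mRNAs for the embryo and hold many of them untranslated, and vertebrate oocytes carry their own form of the cap-binding protein, eIF4E1B. No sequence of these genes was used here.

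Total counts ranged from 16456718 to 38754919 per library, and 3 counts, the limit a count of 0 allows, were worth 0.0811 to 0.181 CPM (counting error only). All 15 oocyte markers and all 8 germ cell markers looked up were detected, with no marker at 0 throughout. The summed oocyte markers were lowest in wild-type replicates 2 and 3 of 61 dpf, at 7497 and 9619 CPM, against 12230 to 18647 CPM in the other 10 libraries. Egg coat genes made up much of this sum, and from 47 to 61 dpf in wild type zp2.2 went from a mean of 2965 to 952 CPM and zp2.5 from 2280.1 to 981 CPM. The other oocyte markers went both ways between these means. bmp15 was at 181 and 353 CPM, h1m at 1248 and 1919 CPM and org at 450.2 and 807 CPM. The highest library of org stood at 1449 CPM. Lower at 61 dpf were figla, at 54.9 and 27.4 CPM, zar1, at 646 and 463 CPM, and cpeb1b, at 1563 and 1210 CPM. buc and btg4 also rose, and gdf9 and pabpc1l also fell. A low oocyte marker sum is thus not a low level of every oocyte marker. The 8 germ cell markers summed to 4698, 5354 and 5495 CPM in wild-type replicates 1 to 3 of 61 dpf. The erythroid markers summed to 159 to 815 CPM at 47 dpf and to 17.3 to 66.2 CPM at 61 dpf. The 12 granulosa and theca markers summed to 228 to 263 CPM in wild type at 47 dpf and to 178 to 234 CPM at 61 dpf. In mutants this was 183 to 281 and 221 to 252 CPM. Of these gsdf had wild-type means of 65.5 and 15.3 CPM and mutant means of 74.6 and 44.8 CPM, while fshr rose in wild type from 4.30 to 9.73 CPM. Endothelial markers summed to 55.6 to 70.9 CPM in wild type and 64.0 to 77.9 CPM in mutants. The 12 macrophage and neutrophil markers summed to 140.0 to 301 CPM in the mutant libraries and 59.7 to 108 CPM in the wild-type libraries. Much of this sum came from cd74a and cd74b, whose mutant means at 47 dpf were 83.1 and 58.0 CPM, against wild-type means of 21.7 and 24.4 CPM. The mutant means of lyz and mpx were not higher at either age. That of spi1b was lower at 61 dpf, 4.92 against 12.5 CPM, and higher at 47 dpf. The remaining markers of this list had higher mutant means at both ages. The 18 skeletal muscle markers stood at 565 CPM in mutant replicate 2 of 47 dpf and at 42.1 to 106 CPM elsewhere. Exocrine pancreas markers summed to 587, 4.42 and 137 CPM in wild type and 1051, 26.4 and 2301 CPM in mutants at 47 dpf. At 61 dpf they summed to 9.16 to 732 CPM. Liver markers stood at 208 CPM in mutant replicate 1 of 47 dpf and at 8.72 to 61.9 CPM elsewhere. The adamts9 gene itself lay between 12.9 and 16.1 CPM in mutants and between 9.98 and 18.9 CPM in wild type, so its level did not separate the genotypes.

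The members together took 1.13% to 1.44% of all counts in a library. By group this was 1.302% ± 0.0427 in wild type and 1.37% ± 0.0918 in mutants at 47 dpf, and 1.21% ± 0.134 in wild type and 1.29% ± 0.0347 in mutants at 61 dpf (SD, n = 3). Averaged over the 12 libraries, 2 members exceeded 1000 CPM, 27 (these 2 among them) exceeded 100 CPM, 44 lay between 10 and 100 CPM, 12 between 1 and 10 CPM, and 3 under 1 CPM. The 2 highest were both elongation factors, eef2b at 1653 CPM and eef1a1l1 at 1280.1 CPM, which ranked 33 and 66 among all genes. CPM values are not divided by transcript length, so the order of levels between genes is an order of counts and not of molecules.

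**Figure D1:**
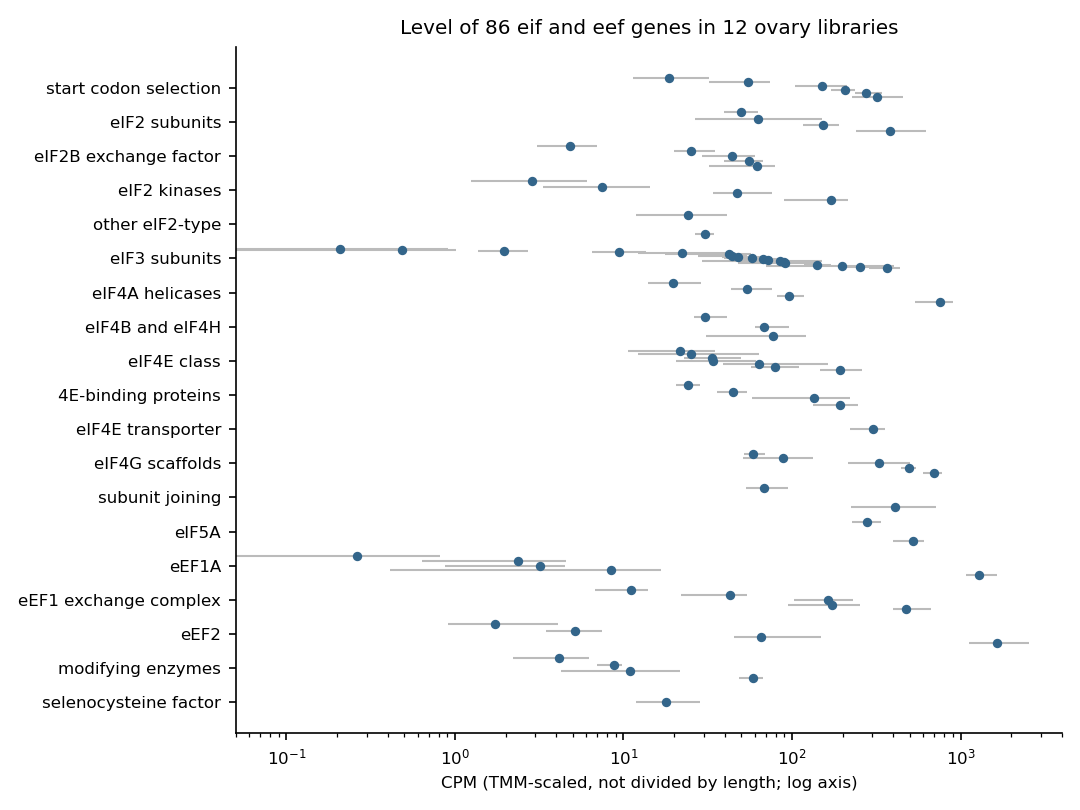
Mean level of each of the 86 members over the 12 libraries (points, CPM on a log axis) with the lowest and highest library (lines), by role group. eef2b and eef1a1l1 lie furthest to the right, and lines that reach the left edge belong to genes with a library at or near 0.

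With all libraries no member passed the edgeR test between the genotypes at either age. At 47 dpf, 0 of 85 members were called between mutant and wild type (edgeR quasi-likelihood test, adjusted p under 0.05), where 0.0888% of all genes tested were called. At an unadjusted p under 0.05 there were 1 higher and 1 lower member, against 5.12% and 1.8% of all genes, and DESeq2 called 1 member, against 0.81% of all genes. For 66 of the 85 members the 95% interval of the fold change lay within 2-fold in either direction, against 53% of all genes. All mutant libraries lay above all wild-type libraries in 4 members and below them in 2, against 8% and 4.6% of all genes. The median log2 fold change was -0.00 over members and 0.02 over all genes. Among members whose mean log2 CPM reached 1 the largest positive values were 1.12 for eif4bb, 0.96 for eif2ak2 and 0.64 for EIF2AK4, and the largest negative values were -0.78 for eif3ja, -0.59 for eef2kmt and -0.58 for eef2a.2.

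At 61 dpf, again 0 of 85 members were called by edgeR, where 1.82% of all genes were. At an unadjusted p under 0.05 there were 2 higher and 13 lower members, against 13.2% and 12.2% of all genes. DESeq2 called 7 members, against 11.2% of all genes, of which 1 was higher and 6 were lower, against 5.28% and 5.9%. The interval lay within 2-fold for 58 of 85 members, against 39.2% of all genes. All mutant libraries lay above all wild-type libraries in 6 members and below them in 12, against 15.6% and 12.4% of all genes. A positive log2 fold change was seen in 31 of 85 members, against 50.4% of all genes, and its median was -0.12 over members and 0.01 over all genes. With upper-quartile scaling, which raised the median of all genes to 0.20, it was positive in 47 of 85 members, with a median of 0.07 over members. By the same rule the largest positive values were 1.19 for eef1a1a, 0.61 for eef2k and 0.54 for eif3ha, and the largest negative values were -1.49 for eif2s1a, -1.34 for eef2kmt and -1.15 for eif4e1b. Leaving out wild-type replicate 2 of 61 dpf gave 8 called members, against 7.48% of all genes. Of these 8, 1 was higher and 7 were lower, against 3.38% and 4.1% of all genes. Leaving out wild-type replicate 1 gave 2, against 2.57%.

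With age, 1 of 85 members was called in wild type, where 1.52% of all genes were, and 0 of 85 in mutants, where 0% of all genes were. In wild type 5 members were higher and 7 lower at an unadjusted p under 0.05, against 11.4% and 10.2% of all genes, and DESeq2 called 4, against 7.97%. In 6 members all wild-type libraries of 61 dpf lay above all of 47 dpf, and in 8 below, against 11.3% and 11.6% of all genes. Leaving out wild-type replicate 1 of 61 dpf gave 6 called members, against 3.91% of all genes, and replicate 2 gave 2, against 2.09%. None was called without replicate 3 of 61 dpf, against 0.235% of all genes, or without any 1 replicate of 47 dpf, against 0.0737% to 0.428%. In mutants 3 members were lower at an unadjusted p under 0.05, against 2% of all genes, and DESeq2 called 0, against 0.122%. The log2 fold change with age in mutants was positive in 25 of 85 members, against 49% of all genes, with a median of -0.12 over members and -0.01 over all genes. In mutants 11 members had all 61 dpf libraries below all 47 dpf libraries and 1 had them above, against 6.05% and 5.54% of all genes. The difference between the mutant effects at both ages was called in 0 of 85 members and in 0% of all genes, with 5 members at an unadjusted p under 0.05, against 8.46% of all genes, and 0 by DESeq2, against 0.467%. The mutant comparisons and the age comparisons share libraries, so their values for a gene are not independent of each other.

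**Figure D2:**
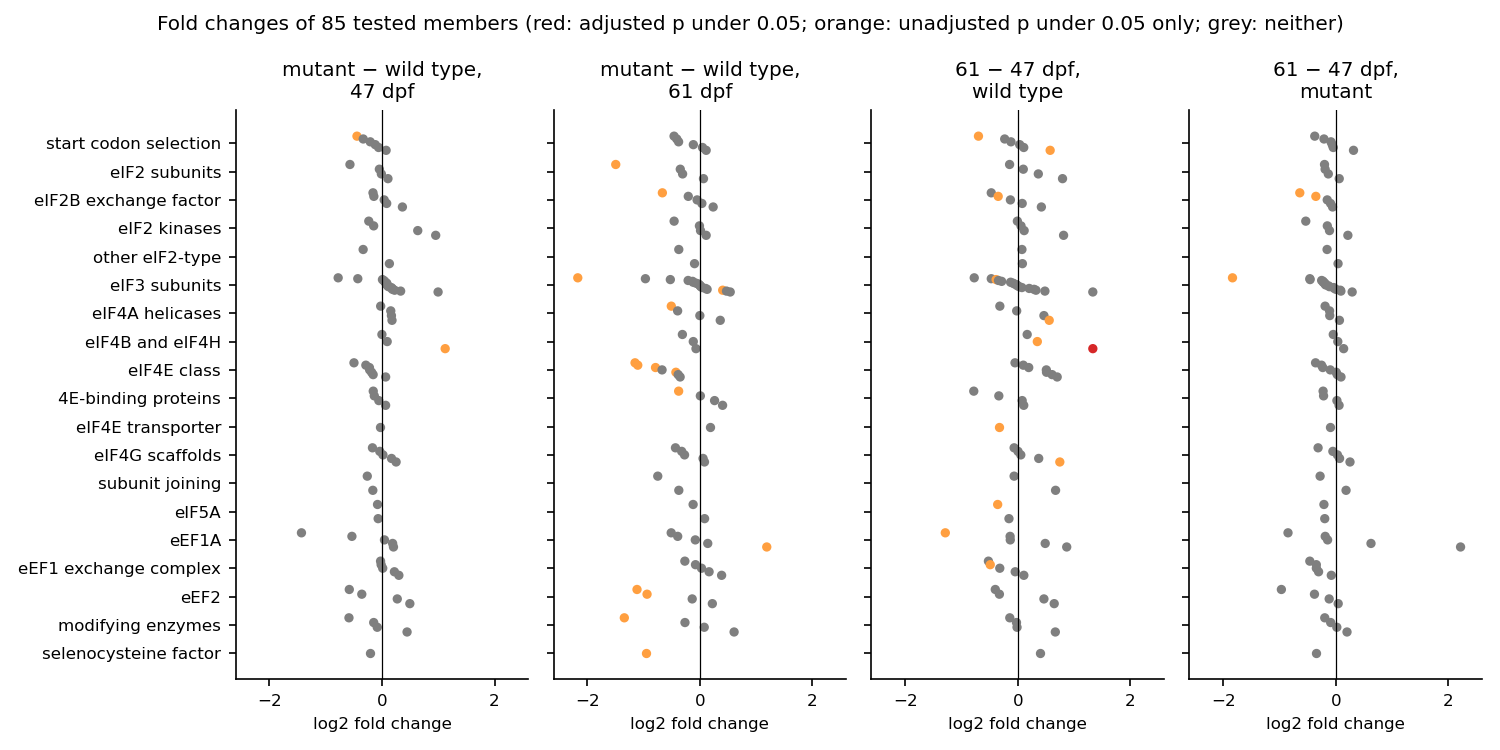
Log2 fold change of the 85 tested members (points) in the 4 comparisons, by role group, relative to wild type or to 47 dpf. The single red point is eif4bb, at 1.33 with age in wild type, and in the mutant comparison at 61 dpf the eIF4E class lies wholly left of 0.

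eif4bb was the member called with age. It encodes a copy of eIF4B, an RNA-binding helper of the eIF4A helicase. In wild type at 47 dpf it stood at 30.8, 47.3 and 35.8 CPM in replicates 1 to 3, and at 61 dpf at 86.2, 121 and 80.3 CPM. Every 61 dpf library lay above every 47 dpf library, with a log2 fold change of 1.33 ± 0.25 (SE, adjusted p = 0.0294). In bulk RNA a change in the share of cells that express a gene and a change in RNA per cell cannot be told apart. The lower oocyte marker sums of 2 of the 3 wild-type libraries of 61 dpf, much of them from egg coat genes, moved with this comparison. So did the erythroid marker sum, at 526, 248 and 311 CPM in wild type at 47 dpf and 17.3, 57.6 and 37.9 CPM at 61 dpf. The part of either in this and the other age values was not tested. Wild-type replicates 2 and 3 of 61 dpf had the low oocyte marker sums. Without replicate 2 the log2 fold change was 1.13 (adjusted p = 0.0465), and without replicate 3 the call was lost.

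The call was lost in several alternatives. Leaving out wild-type replicate 1, 2 or 3 of 47 dpf gave adjusted p of 0.117, 0.0669 and 0.0755, leaving out wild-type replicate 3 of 61 dpf gave 0.0577, and fitting only the wild-type libraries gave 0.110. Its log2 fold change stayed between 1.13 and 1.53 when any 1 of these 6 libraries was left out.

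In mutants eif4bb was already at 105, 59.17 and 83.9 CPM at 47 dpf and stood at 101, 95.6 and 77.4 CPM at 61 dpf. The mutant libraries of 47 dpf all lay above the wild-type libraries of that age, and the mutant libraries of both ages overlapped. The mutant log2 fold change at 47 dpf was 1.12 ± 0.25, which did not pass the edgeR threshold (adjusted p = 0.188) and passed that of DESeq2 (adjusted p = 0.0162). The difference between the mutant effects at both ages was -1.19 ± 0.35 (adjusted p = 0.425). The other copy, eif4ba, averaged 28.2 CPM in both genotypes at 47 dpf, and 35.9 CPM in wild type and 28.9 CPM in mutants at 61 dpf. eif4h, a related cofactor of eIF4A, averaged 64.8 to 72.8 CPM over the 4 groups, and neither gene was called.

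**Figure D3:**
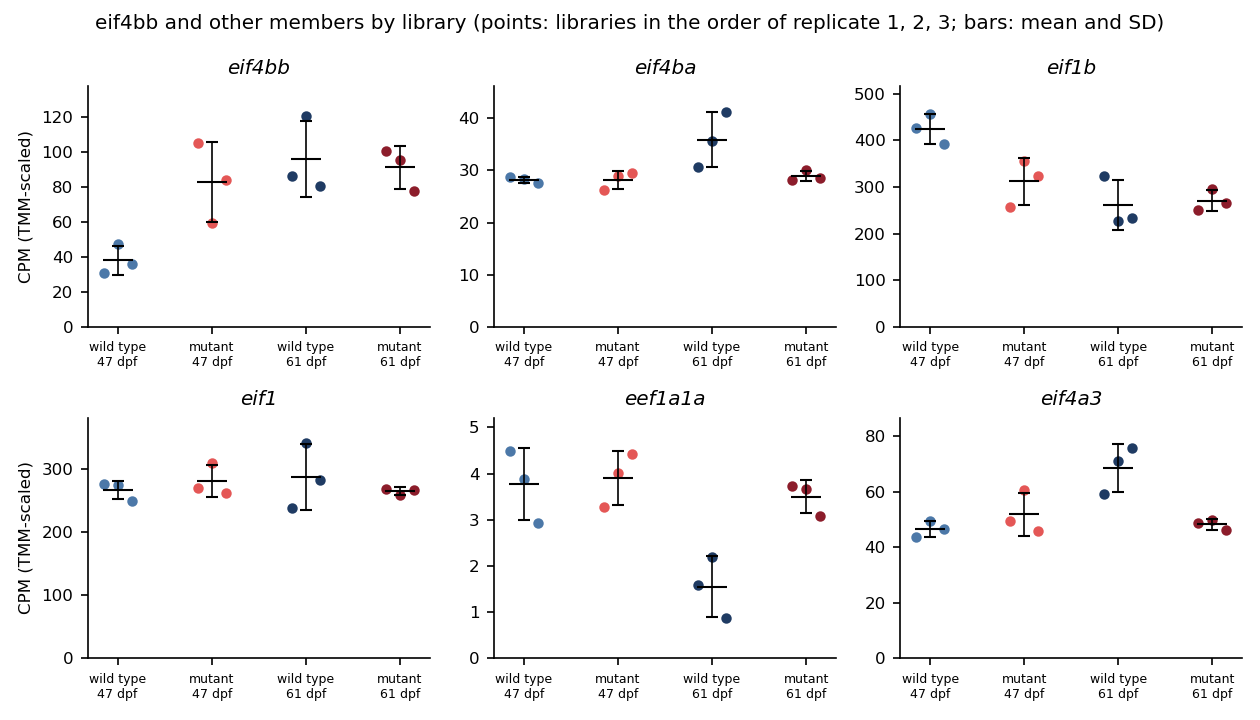
CPM of eif4bb, its copy eif4ba, the start codon factors eif1b and eif1, eef1a1a and eif4a3 in each library (points, replicates 1 to 3 from left to right) with group mean and SD (bars). eif4bb was at 30.8 to 47.3 CPM in wild type at 47 dpf and at 59.17 CPM or more in the 9 other libraries.

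Among the factors of start codon selection, eif1b showed the highest counts. eIF1 keeps the scanning ribosome from stopping at wrong codons. eif1b measured 426, 457 and 391 CPM in wild type and 258, 356 and 323 CPM in mutants at 47 dpf, and 323, 228 and 234 CPM in wild type and 250.4, 295 and 265 CPM in mutants at 61 dpf. All wild-type libraries of 47 dpf lay above all others, with a log2 fold change of -0.70 ± 0.18 with age in wild type (adjusted p = 0.0709) and -0.44 ± 0.18 for the mutant at 47 dpf (adjusted p = 0.637). The age value passed with DESeq2 (adjusted p = 0.0125) and, at -0.91, without wild-type replicate 1 of 61 dpf (adjusted p = 0.0222). Without that replicate 3.91% of all genes were called, and eif1b was called in no other alternative. Its paralog eif1 had group means of 265 to 287 CPM. None of the 6 genes of this group, which also holds eif1axa, eif1axb, eif1ad and eif5, passed the edgeR threshold with all libraries in any comparison.

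Of the eIF2 subunits, eif2s2, the beta subunit, had the highest counts, a mean of 383 CPM. The alpha subunit is the one that stress kinases phosphorylate, and it has 2 genes here. eif2s1a stood at 45.3, 47.2 and 94.9 CPM in wild type and 42.9, 26.5 and 56.9 CPM in mutants at 47 dpf. At 61 dpf it was at 132, 41.2 and 151 CPM in wild type and at 37.1, 44.3 and 34 CPM in mutants. Wild-type replicate 2 of 61 dpf lay inside the range of the mutants, so the groups overlapped, and the log2 fold change of -1.49 ± 0.45 at 61 dpf did not pass with edgeR (adjusted p = 0.0836). It passed with DESeq2 (adjusted p = 0.0151) and, at -1.89, without that wild-type replicate (adjusted p = 0.0261), where 7.48% of all genes were called. No other alternative called eif2s1a in this comparison. The other copy, eif2s1b, had group means of 43.8 to 54.2 CPM.

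The 5 subunit genes of eIF2B, which recharges eIF2 with GTP, were led by eif2b4 with a mean of 61.6 CPM. The log2 fold change with age in mutants was negative in all 5, with a median of -0.15, where 49% of all genes were positive. For 2 of them the unadjusted p was under 0.05, where 2% of all genes were lower at that limit, and none was called. Among the 4 kinases that phosphorylate eIF2, eif2ak3, the sensor of unfolded protein in the endoplasmic reticulum, had the most counts. It measured 186, 215 and 109 CPM in wild type and 189, 182 and 89.3 CPM in mutants at 47 dpf, and 131 to 213 CPM at 61 dpf. Replicate 3 was the lowest library of both genotypes at 47 dpf. eif2ak1, the heme-regulated kinase, had group means of 39.8 to 54.6 CPM, and EIF2AK4, the amino acid sensor, 6.42 to 10.1 CPM. eif2ak2, the kinase activated by double-stranded RNA, was at 1.41 to 2.44 CPM in wild type and 2.84 to 3.90 CPM in mutants at 47 dpf, groups that did not overlap (log2 fold change 0.96 ± 0.49, adjusted p = 0.778). At 61 dpf eif2ak2 was at 2.11, 6.09 and 1.25 CPM in wild type and 3.14, 3.78 and 2.39 CPM in mutants, groups that overlapped. The macrophage and neutrophil marker sum was higher in every mutant library at both ages, and its part in the eif2ak2 values was not tested. In that sum cd74a and cd74b weighed most, and lyz and mpx were not higher in mutants on average. Of the 2 remaining genes with eif2 symbols, eif2a led with a mean of 30.4 CPM, and group means of 29.0 to 32.3 CPM.

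The eIF3 complex, which holds the small subunit open for mRNA, is encoded by 18 members, of which 17 were tested and none called with all libraries. eif3s10, a subunit under its older name, had the highest counts, a mean of 368 CPM. At 47 dpf 15 of the 17 log2 fold changes of the mutant were positive, against 52.7% of all genes, with a median of 0.09. Without mutant replicate 2 this was 10 of 17, with a median of 0.01, and without mutant replicate 3 it was 12 of 18. At 61 dpf 8 of 17 were positive, against 50.4% of all genes, with a median of -0.01. In wild type at 61 dpf several subunits were high in replicate 1 and low in replicates 2 and 3, the 2 libraries with the low summed oocyte markers. eif3ha was at 89.7, 45.2 and 29.2 CPM there, against 85.8, 72.1 and 80.9 CPM in mutants of that age (log2 fold change 0.54 ± 0.38, adjusted p = 0.394). eif3m, at 66.3, 50.5 and 46.1 CPM in these wild-type libraries, lay below all 3 mutant libraries of that age, at 68.3, 76.1 and 71.4 CPM (log2 fold change 0.41 ± 0.16, adjusted p = 0.152). The part of the summed oocyte markers, much of them egg coat genes, in these values was not tested. EIF3J, a second line beside eif3ja and eif3jb, was near the floor, at 1.02 CPM or less in every library.

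The cap-binding complex was represented by several paralogs of each part. Of the eIF4A helicases, which unwind the leader of the mRNA, eif4a1a carried the most counts, at 537 to 905 CPM, and eif4a1b and eif4a2 averaged 96.0 and 19.6 CPM. eif4a3 belongs to the exon junction complex. It stood at 59.11, 70.9 and 75.7 CPM in wild type at 61 dpf, above 43.6, 49.6 and 46.4 CPM in wild type at 47 dpf and above 48.7, 49.8 and 46.0 CPM in mutants at 61 dpf. The log2 fold change was 0.56 ± 0.16 with age in wild type (adjusted p = 0.0871) and -0.51 ± 0.16 for the mutant at 61 dpf (adjusted p = 0.0889), so neither passed with edgeR, while both passed with DESeq2 (adjusted p = 0.0195 and 0.0242). For the mutant at 47 dpf the log2 fold changes of the 4 eIF4A genes ran from -0.02 to 0.18. RefSeq places eif4a3 and eif4g3a on chromosome 11, which also carries adamts9. Whether this location bears on the level of either gene was not tested.

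The eIF4G scaffolds tie the cap-binding protein to the helicase and to the ribosome. eif4g1a was at 599 to 777 CPM over all libraries, with log2 fold changes between -0.06 and 0.06 in the 4 comparisons. eif4g2a and eif4g2b encode the form that lacks a binding site for eIF4E. eif4g2a was at 445 to 547 CPM. eif4g2b stood at 267, 264 and 236 CPM in wild type at 47 dpf and at 373, 499.8 and 414 CPM at 61 dpf, which did not overlap (log2 fold change 0.75 ± 0.26, adjusted p = 0.132). eif4g3a and eif4g3b averaged 88.1 and 58.7 CPM, and no eIF4G gene was called.

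The 7 genes of the eIF4E class shared 1 sign in the mutant comparison at 61 dpf, though none was called by edgeR with all libraries. DESeq2 called 1, eif4e1b. All 7 had a negative log2 fold change, from -1.15 to -0.35 with a median of -0.67, where 50.4% of all genes were positive. For 4 of them the unadjusted p was under 0.05, where 12.2% of all genes were lower at that limit. The direction was the same in all 7 with each scaling tried, with DESeq2 and without any 1 of the 6 libraries. With upper-quartile scaling the median was -0.47. Over all members 31 of 85 were positive. The 7 genes were measured in the same libraries, so their signs are not independent of each other. Their summed CPM at 61 dpf was 594, 353 and 712 in wild type and 364, 385 and 364 in mutants. Wild-type replicate 2 thus lay below every mutant library. With age in wild type 6 of 7 were positive, against 51.5% of all genes, with a median of 0.51. Without replicate 1 or replicate 3 of 61 dpf it was 4 of 7, with medians of 0.29 and 0.08. At 47 dpf 6 of 7 were negative in the mutant, where 52.7% of all genes were positive. The median was -0.22, and -0.06 without wild-type replicate 3.

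eif4e1b, the oocyte-type cap-binding protein, measured 58.0, 52.5 and 75.4 CPM in wild type and 39.1, 49.4 and 75.1 CPM in mutants at 47 dpf. At 61 dpf it was at 78.5, 41.3 and 164 CPM in wild type and 38.9, 43.6 and 45.1 CPM in mutants. Wild-type replicates 1 and 3 lay above the mutants and replicate 2 among them. For eif4e1b the log2 fold change was -1.15 ± 0.40 (adjusted p = 0.110, and 0.0419 with DESeq2), and -1.51 without wild-type replicate 2 (adjusted p = 0.0320). Without that replicate 7.48% of all genes were called, and eif4e1b was called in no other alternative. eif4ea and eif4e3 followed the same order of the wild-type libraries of 61 dpf. eif4ea was at 40.5, 16.3 and 63.6 CPM in wild type and 19.5, 20.8 and 15.8 CPM in mutants at 61 dpf (log2 fold change -1.10 ± 0.40, adjusted p = 0.119). eif4e3 was at 53.1, 27.4 and 61.4 CPM and 25.2, 30.0 and 27.0 CPM (log2 fold change -0.79 ± 0.29, adjusted p = 0.127). Without wild-type replicate 2 these genes were called as eif4e1b was. eif4ea was then at -1.48 (adjusted p = 0.0287) and eif4e3 at -1.07 (adjusted p = 0.0339).

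Of the other 4 genes, eif4e1c had the highest counts of the class, with group means of 169.6 to 216 CPM, followed by eif4eb with 64.7 to 90.0 CPM. eif4e2 encodes a cap-binding protein that represses translation because it binds eIF4G poorly, and it had group means of 17.8 to 28.3 CPM. Those of eif4e2rs1, a related gene by its symbol, were 29.5 to 39.3 CPM.

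As a share of the summed CPM of the 7 genes, which does not depend on library scaling, eif4e1b made up 13.8%, 12.3% and 13.6% in wild type and 10.6%, 13.2% and 15.6% in mutants at 47 dpf. At 61 dpf the shares were 13.2%, 11.7% and 23.0% in wild type and 10.7%, 11.3% and 12.4% in mutants. The groups overlapped at both ages, and 1 library, wild-type replicate 3 of 61 dpf, stood apart. Exact two-sided permutation tests gave p = 0.9 at 47 dpf and p = 0.2 at 61 dpf (both adjusted over 4 comparisons, 0.9 and 0.8), where 3 against 3 libraries cannot give less than 0.1. The other 6 genes, which are not oocyte-type by name, summed to 312 to 548 CPM in a library, against 38.9 to 164 CPM for eif4e1b. This sets 1 gene against a sum of 6, in counts not divided by length. It therefore does not rank eif4e1b against any single paralog.

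**Figure D4:**
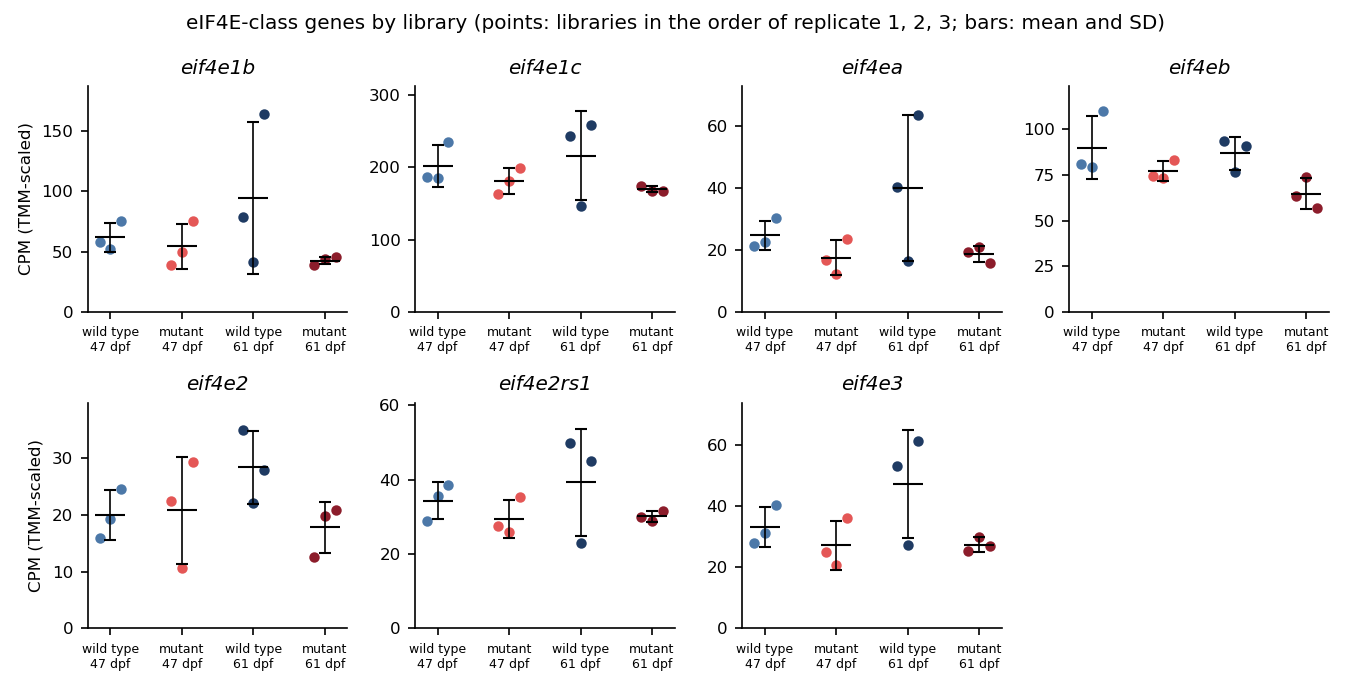
CPM of the 7 eIF4E-class genes in each library (points, replicates 1 to 3 from left to right) with group mean and SD (bars). In most panels replicates 1 and 3 of wild type at 61 dpf lie above the mutants of that age, while replicate 2 does not, as for eif4e1b at 78.5, 41.3 and 164 CPM.

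The 4E-binding proteins sequester eIF4E when the growth kinase mTOR is inactive. eif4ebp2 averaged 193 CPM, eif4ebp1 136 CPM, eif4ebp3l 44.5 CPM and eif4ebp3 24.3 CPM. In wild type at 61 dpf, eif4ebp1 was at 168, 64.9 and 57.9 CPM, against 111, 169 and 221 CPM at 47 dpf (log2 fold change -0.78, adjusted p = 0.248). Without wild-type replicate 1 of 61 dpf it was -1.48 (adjusted p = 0.0233), where 3.91% of all genes were called. In no other alternative was eif4ebp1 called. The 2 low libraries were those with low oocyte marker sums, much of them from egg coat genes. The part of these sums in this value was not tested. None of the 4 was called with all libraries. eif4enif1, the eIF4E transporter of RNA granules, was at 222 to 357 CPM, and its log2 fold changes lay between -0.33 and 0.19, with no call.

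Subunit joining and eIF5A came next. eif5b, the GTPase that joins the subunits, was at 718, 356 and 709 CPM in wild type and 303, 421 and 337 CPM in mutants at 61 dpf (log2 fold change -0.75, adjusted p = 0.204). eIF5A eases the ribosome over difficult peptide bonds and carries the amino acid hypusine. eif5a2 stood at 568, 603 and 591 CPM in wild type at 47 dpf and at 529, 400.0 and 447 CPM at 61 dpf, which did not overlap (log2 fold change -0.36 ± 0.15, adjusted p = 0.197). The paralog eif5a had group means of 252 to 305 CPM.

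Elongation factor eEF1A, which delivers aminoacyl-tRNA, was nearly all eef1a1l1 among the members. It lay between 1073 and 1636 CPM, and its log2 fold changes ran from -0.19 to 0.19 with no call. The other 4 eef1a members were low. eef1a1l2 had group means of 5.62 to 11.4 CPM and was at 0.41 CPM in mutant replicate 1 of 47 dpf. eef1a2, known from muscle and neurons, had group means of 1.66 to 2.99 CPM, and eef1a1b 0.0675 to 0.404 CPM.

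eef1a1a was the eEF1A gene that differed most between groups among those over 2 CPM. It stood at 4.49, 3.89 and 2.94 CPM in wild type at 47 dpf and at 1.59, 2.19 and 0.876 CPM at 61 dpf, and mutants of 61 dpf were at 3.74, 3.68 and 3.09 CPM. The wild-type libraries of 61 dpf lay below those of every other group. The log2 fold change was -1.29 ± 0.32 with age in wild type (adjusted p = 0.0652) and 1.19 ± 0.32 for the mutant at 61 dpf (adjusted p = 0.0683), and both passed with DESeq2 (adjusted p = 0.00574 and 0.0136). With upper-quartile scaling the latter was 1.36 (adjusted p = 0.0480), where 4.62% of all genes were called. Without wild-type replicate 2 of 61 dpf it was 1.49 (adjusted p = 0.0339), where 7.48% of all genes were called. The age value was then -1.60 (adjusted p = 0.0433), where 2.09% of all genes were called.

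A further eEF1A gene was not a member by its symbol in the table. RefSeq lists si:dkey-37o8.1 as a synonym of eef1a1l3, and the gene was singled out after its values were seen. It was at 1487, 1097 and 1122 CPM in wild type and 673, 1599 and 1370 CPM in mutants at 47 dpf. At 61 dpf it was at 563, 415 and 430.2 CPM in wild type and 967, 746 and 977 CPM in mutants. The wild-type libraries of 61 dpf lay below all others, as they did for eef1a1a. si:dkey-37o8.1 fell with age in wild type, with a log2 fold change of -1.40 ± 0.29 (adjusted p = 0.0408), a call lost when wild-type replicate 1, 2 or 3 of 47 dpf (adjusted p = 0.124, 0.1002 and 0.0699) or replicate 2 or 3 of 61 dpf (0.0615 and 0.0986) was left out, or with the wild-type libraries alone (0.0925). For the mutant at 61 dpf it was 0.93 ± 0.29 (adjusted p = 0.0855, and 0.0322 with DESeq2). The oocyte marker sum, much of it from egg coat genes, was also lowest in 2 of these 3 wild-type libraries. The erythroid marker sum was lower in all 3 than at 47 dpf. The part of either in this result was not tested.

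The 5 genes of the eEF1 exchange complex group, which reload eEF1A with GTP or carry its name, were led by eef1b2 with a mean of 476 CPM. With age their log2 fold changes were negative in 4 of 5 in wild type (median -0.32) and in all 5 in mutants (median -0.34). Over all genes 51.5% were positive with age in wild type and 49% in mutants. Their summed CPM was 775, 831 and 1046 in wild type at 47 dpf and 1054, 640 and 731 at 61 dpf. In mutants it was 782, 1148 and 1059 at 47 dpf and 771, 738 and 820 at 61 dpf. The ages thus overlapped in both genotypes. Wild-type replicates 2 and 3 of 61 dpf also had the low oocyte marker sums, whose part in these values was not tested. None of the 5 genes was called with all libraries. The translocation factor eEF2 was mainly eef2b, at 1128 to 2543 CPM, with log2 fold changes from -0.38 to 0.27 and no call. eef2a.1 stood at 58.6, 73.7 and 149 CPM in wild type and 48.9, 45.3 and 52.6 CPM in mutants at 61 dpf, which did not overlap (log2 fold change -0.94 ± 0.28, adjusted p = 0.0845, and 0.0238 with DESeq2). Without wild-type replicate 1 it was -1.16 (adjusted p = 0.0438), where 2.57% of all genes were called. eef2a.2 had group means of 4.44 to 6.64 CPM and eef2l2 1.06 to 2.31 CPM. Reads of such similar copies may have been split between them when counts were estimated, so each copy's level is uncertain.

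Of the modifying enzymes, eef1akmt1, a lysine methyltransferase of eEF1A, had the highest counts, a mean of 58.4 CPM. eef2kmt, which methylates a lysine of eEF2, was at 20.7, 11.3 and 21.6 CPM in wild type and 8.58, 8.22 and 4.27 CPM in mutants at 61 dpf, groups that did not overlap (log2 fold change -1.34 ± 0.37, adjusted p = 0.0695, and 0.00907 with DESeq2). Without wild-type replicate 2 it was -1.59 (adjusted p = 0.0353), where 7.48% of all genes were called. eef2k, the kinase that inhibits eEF2, was at 2.81, 4.20 and 2.71 CPM in wild type and 4.24, 5.27 and 5.28 CPM in mutants at 61 dpf (log2 fold change 0.61 ± 0.32, adjusted p = 0.252). eefsec, which brings selenocysteine to the ribosome, was at 16.9, 28.5 and 28.1 CPM in wild type and 13.4, 12.4 and 11.9 CPM in mutants at 61 dpf. Every wild-type library lay above every mutant library, and for eefsec the log2 fold change was -0.96 ± 0.26 (adjusted p = 0.0675, and 0.0110 with DESeq2). Without wild-type replicate 1 it was -1.15 (adjusted p = 0.0443), where 2.57% of all genes were called.

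The members differed more between the wild-type libraries of 61 dpf than elsewhere. The median SD of log2 CPM among the 3 libraries was 0.37 there, against 0.20 in wild type and 0.25 in mutants at 47 dpf and 0.12 in mutants at 61 dpf. Over all genes tested the medians were 0.44, 0.28, 0.30 and 0.23 in the same order, so the median spread of the members was the smaller in each group. Members and all genes were not matched for expression level, on which such spread can depend. The same holds for the intervals within 2-fold. eif3ja, a subunit gene of eIF3, was an example of wide spread in wild type at 61 dpf. It was at 403, 116 and 385 CPM in wild type and 146, 179 and 138 CPM in mutants at 61 dpf. At 47 dpf it was at 118, 166 and 364 CPM in wild type and 128, 69.9 and 179.6 CPM in mutants, so that replicate 3 was the highest of both genotypes. eif2s1a and eif2d, a factor that can deliver tRNA outside the usual route, had the same order at 47 dpf, with eif2d at 15.3, 23.8 and 40.2 CPM in wild type and 21.4, 11.9 and 29.4 CPM in mutants.

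**Figure D5:**
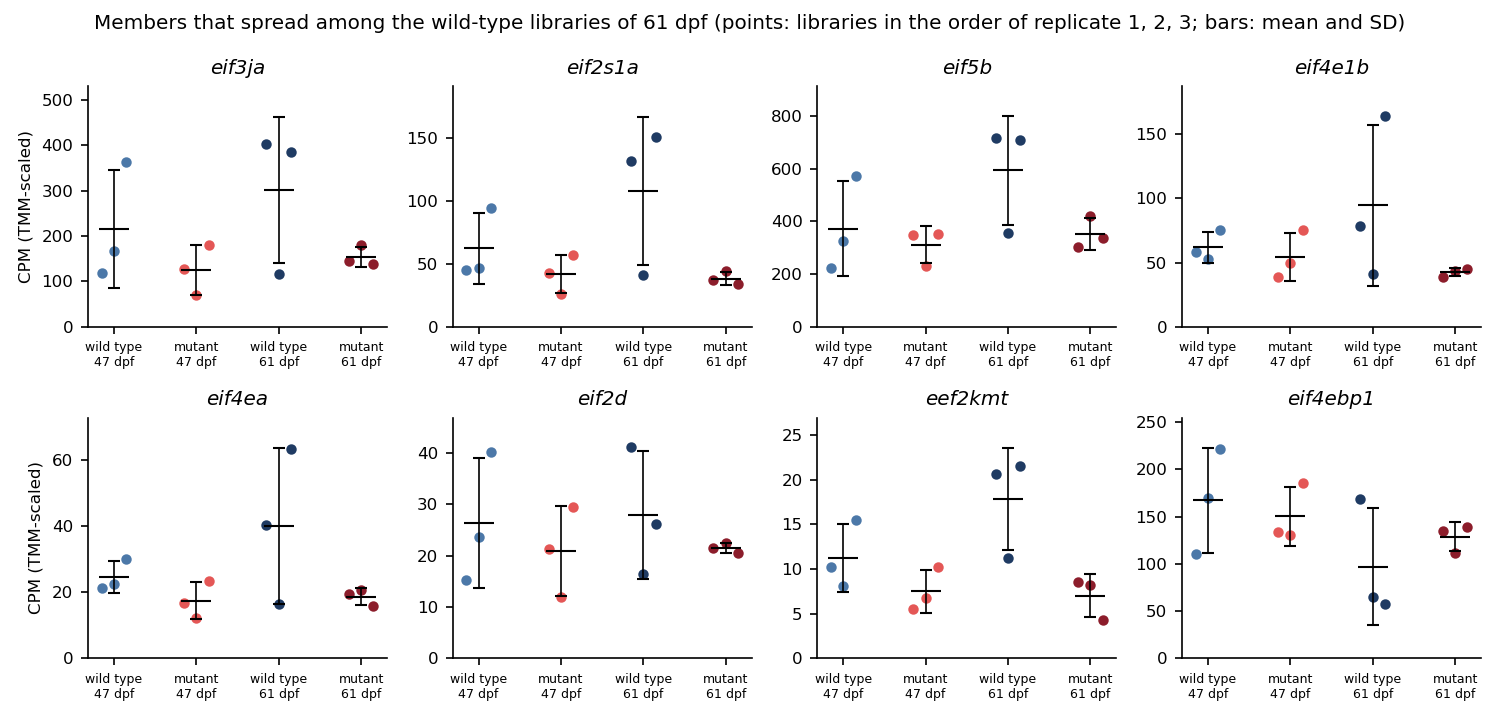
CPM of 8 members, chosen for their spread after the values were seen, in each library (points, replicates 1 to 3 from left to right) with group mean and SD (bars). In 7 of the 8 panels replicate 2 of wild type at 61 dpf lies below replicates 1 and 3, as for eif3ja at 403, 116 and 385 CPM, and eif4ebp1 is the exception.

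Neighbouring genes of the pathway were looked up as 5 lists. Of the 22 genes for poly(A) binding and mRNA masking, 1 fell with age in wild type, where 0.789% of all genes did. None was called in another comparison. The 1 called was ddx6, a helicase of repressed mRNA granules. In wild type it was at 729 ± 156 CPM at 47 dpf and 286 ± 73.6 CPM at 61 dpf. Its log2 fold change was -1.35 ± 0.25 (adjusted p = 0.0294). In mutants ddx6 averaged 674 and 553 CPM at the same ages. Without wild-type replicate 1 or 2 of 47 dpf, or replicate 3 of 61 dpf, its adjusted p was 0.0935, 0.1002 and 0.0662, and with the wild-type libraries alone 0.115.

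Of the 11 genes of the response to eIF2 phosphorylation, 1 was lower in mutants at 61 dpf, where 0.598% of all genes were. This was ppp1r15b, a subunit of the phosphatase that removes that phosphate, with 21.1 ± 7.54 CPM in wild type against 7.30 ± 0.811 CPM in mutants (log2 fold change -1.53 ± 0.28, adjusted p = 0.0306). The call was lost without wild-type replicate 3 (adjusted p = 0.0688), without mutant replicate 1, 2 or 3 (0.0821, 0.0869 and 0.125) and with only the 61 dpf libraries (0.110). None of the 7 release and recycling genes, the 13 tested genes of the mTORC1 pathway, or the 9 mitochondrial translation factors was called by edgeR in any comparison. At an unadjusted p under 0.05 in the mutant comparison at 61 dpf, 1 release gene was higher and 1 lower, 2 mTORC1 genes were higher and 3 lower, and 3 mitochondrial factors were lower, where 13.2% of all genes were higher and 12.2% lower.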

How the data were processed

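Polyadenylated RNA of ovary was measured in 12 libraries, grouped by the genotype and age of the sample labels. Estimated counts, 1 line per gene symbol and 1 column per library, are what the authors deposited. Per the submitters' processing notes kallisto and GRCz11 were used, with versions not given in the sources used here. Of the deposited values 45.4% were not whole (tolerance 1e-06), and the estimated counts were rounded. A line with no gene name was left out. Genes were filtered with filterByExpr, which left 21407, scaled by TMM, and fitted in 1 model with 4 groups (edgeR 4.0.16, R 4.3.3, quasi-likelihood test, common biological coefficient of variation 0.33). Every adjusted p not credited to DESeq2 or to the permutation tests is from edgeR, Benjamini-Hochberg over all genes tested. Those of the permutation tests are Benjamini-Hochberg over 4 comparisons. Called means an adjusted p under 0.05, and values after ± are SE for log2 fold changes and SD (n = 3) for levels. CPM was computed here with TMM scaling. Alternatives were other scalings, no filter, DESeq2 1.42.0, fits of the compared groups, a block on replicate number and leaving out each library.

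Levels were meant to be divided by coding length. The lengths were not in the tables used here, so plain CPM stands in. Of the 86 members 84 matched a RefSeq symbol (GRCz12tu), used for names and chromosomes only. The table has no separate line for eif4g1b or for eif2ak4 in lower case.

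The text names members called (up to 10 a comparison), the 3 largest rises and falls per mutant comparison whose mean log2 CPM reached 1 or more, the paralog families of eIF4E, its binding proteins, eIF4A, eIF4G, eIF5A, eEF1A, eEF2 and the kinases, and the highest-count member of each other role. Others named were chosen after their values were seen. Members and lists were chosen with earlier results of these data known. The tests were tried on simulated counts first. Nearly identical copies may share reads in the estimation.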

Additional observations from a re-analysis of the deposited data

How the results depend on the processing

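Of the counts of called members, those for the mutant at 47 dpf, age in mutants and the difference stayed at 0 under every alternative run, except that DESeq2 called 1 at 47 dpf. For the mutant at 61 dpf DESeq2 called 7 and upper-quartile scaling 1, against 11.2% and 4.62% of all genes, and leaving out 1 library gave 0 to 8, against 0.125% to 7.48%. For age in wild type DESeq2 called 4, the compared groups alone 0, and leaving out 1 library 0 to 6, against 7.97%, 0.129% and 0.0737% to 3.91% of all genes. With the replicate block that count was also 0 (eif4bb adjusted p = 0.0620), and the block changed no other count. The main fit did not pair libraries by replicate number. Same-numbered libraries correlated between -0.20 and 0.25 in their deviations from the group means. Between mutants of 47 and 61 dpf every library matched its own number best, with correlations of 0.094, 0.073 and 0.161 for replicates 1 to 3. In the other pairs of groups not every library did. No cause of these shifts was tested.

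Single values reversed for eif4bb in the mutant comparison at 61 dpf, main value -0.07, which was 0.11 with upper-quartile scaling. Leaving out single libraries gave -0.18 to 0.13 for that value, -0.0497 to 0.35 for eif4bb with age in mutants, -0.52 to 0.0049 for eif4e1b in the mutant at 47 dpf and -0.0531 to 0.97 for eif4e1b with age in wild type. The difference in the share of eif4e1b, in percentage points, ran from -1.34 to 1.15 for the mutant at 47 dpf, from -6.65 to -0.98 for the mutant at 61 dpf, from -0.80 to 4.86 for age in wild type and from -2.93 to -0.44 for age in mutants. Upper-quartile scaling moved the median of all genes by 0.19 for the mutant at 61 dpf, -0.11 for age in wild type and 0.15 for the difference. Shares per coding length, with or without 300 bases for untranslated parts, were not run. The medians over members and the alternatives for genes that are no members were added after seeing the data. With 3 libraries a group and floors of 0.0811 to 0.181 CPM, members under 1 CPM give little information.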
